A study of Mus musculus with 1087 samples.

Results

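U1 cluster 5 is a group of 70 single cells, out of 1087 sequenced from the mouse aorta-gonad-mesonephros region, that carry the genes of macrophages although they were sorted to study blood stem cells. Its members were taken from the labels alone: cells given the class U1 and the number 5 in the authors' clustering that left out CD27+ cells. Of the 70 cells, 65 came from the E11.5 G2VLo gate and 5 from the E11.5 G2VInt gate. The 65 cells were described across genes and set against all cells of the same gate and day that the labels class as EC, HC1 or HC2, called the other classes or the other cells from here on. EC made up 38.98% of the cells of this gate, HC1 34.53% and HC2, with 36 cells, 7.63%; the labels give these class names without spelling them out. The working name for these cells, embryonic macrophages, was checked against 7 markers before anything else.

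Macrophages are phagocytes that clear dying cells, debris and old red blood cells, and that sense tissue damage. The first ones in the embryo arise in the yolk sac, enter the tissues and renew there by division, and their survival depends on the receptor Csf1r. In the aorta-gonad-mesonephros region, where blood stem cells bud from the wall of the aorta, macrophages lie close to the forming clusters of blood cells.

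All embryos carried 1 Gata2 allele linked to the Venus fluorescent protein and 1 wild-type allele (Gata2V/+, C57BL/6HsdJOla background), so the compared classes share this reporter. Venus reports transcription of Gata2, a transcription factor of blood stem cells. Tissue that also held the trunk part of the vitelline and umbilical arteries was digested with collagenase for single-cell sorting, with antibodies against CD31 (the product of Pecam1), cKit (Kit) and CD27 (Cd27). Every cell title says KitHi, and the gates G2VLo and G2VInt stand for low and intermediate Venus. Of the 1087 cells, 87 were E10 G2VInt, 130 E11 G2VInt, 25.67% E11.5 G2VInt, 43.42% E11.5 G2VLo and 10.95% E11.5 CD27+. No label ties a cell to an embryo or a day of sorting, so every group counts as 1 sample, cells are not replicates, and no test was run. Levels are CPM, the reads of a gene summed over the cells of a class and scaled to the same total in every class, and intervals are 95% and cover counting error only. Together the 65 cells had 34996206 gene reads. The shallowest cell had 152492, the deepest 1417544 and the median cell 488895, against medians of 644422 in EC, 436916 in HC1 and 562140 in HC2. A median of 7926 genes per cell had a read, against 9007 in the other cells, and mitochondrial genes took a median of 6.80% of reads against 6.34%.

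The promoters of 3 of the 7 markers, C1qb, Fcrls and Cx3cr1, and of C1qc are shown, because they are the regulatory sequence beside the defining result. These 4 are among the 30 genes highest above the other classes but are not its first 4, and they were chosen after values were seen. C1qb and C1qc are neighbouring genes for subunits of complement C1q, Fcrls is a receptor-like gene of the Fc receptor family, and Cx3cr1 is the receptor of the chemokine fractalkine. Each line holds the 250 bases before the start site, read 5′ to 3′ on the gene's own strand (RefSeq, GRCm38.p6), and capitals mark the motif GAGGAAG or its reverse complement CTTCCTC, the core of sites bound by PU.1, the product of Spi1. The positions, all on the minus strand, are chr4:136886201-136886450 for C1qb, chr4:136892915-136893164 for C1qc, chr3:87263525-87263774 for Fcrls and chr9:120068297-120068546 for Cx3cr1. Gene positions given below are from GENCODE M21, where start sites can differ from RefSeq. By them the whole Cx3cr1 window and most of the Fcrls window, with its motif, lie inside the gene.
C1qb: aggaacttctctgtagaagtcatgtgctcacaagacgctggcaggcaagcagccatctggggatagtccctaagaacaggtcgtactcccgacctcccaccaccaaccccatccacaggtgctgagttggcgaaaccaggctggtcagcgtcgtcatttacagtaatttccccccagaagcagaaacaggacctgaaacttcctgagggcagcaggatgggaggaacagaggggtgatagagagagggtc
C1qc: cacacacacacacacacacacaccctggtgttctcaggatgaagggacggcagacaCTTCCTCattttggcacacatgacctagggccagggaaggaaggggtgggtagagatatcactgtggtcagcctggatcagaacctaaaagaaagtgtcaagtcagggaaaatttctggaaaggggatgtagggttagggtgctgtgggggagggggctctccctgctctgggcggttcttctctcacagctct
Fcrls: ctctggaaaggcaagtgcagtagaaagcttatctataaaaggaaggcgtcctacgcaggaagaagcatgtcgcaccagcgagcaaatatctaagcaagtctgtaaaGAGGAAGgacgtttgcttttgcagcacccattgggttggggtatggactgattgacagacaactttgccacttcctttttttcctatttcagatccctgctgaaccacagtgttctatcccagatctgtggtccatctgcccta
Cx3cr1: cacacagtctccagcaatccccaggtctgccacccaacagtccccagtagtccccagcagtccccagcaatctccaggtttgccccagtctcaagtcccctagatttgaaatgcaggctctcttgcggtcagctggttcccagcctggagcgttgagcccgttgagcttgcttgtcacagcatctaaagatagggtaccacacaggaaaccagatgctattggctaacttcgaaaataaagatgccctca
The motif was found once in the C1qc window and once in the Fcrls window, and these letters are not in the other 2 windows, nor in those of Ccl12, Mpeg1 and Ms4a4a, which stand higher in that list of 30. Over the table of 32851 promoters, 10.6% held the motif on either strand in the same window. Among 26 promoters of the 30 genes highest above the other classes (a list given below), 5 held it (19.2%), and among 18 promoters of the 15 genes lowest it was 4 (22.2%). A match describes letters and is no evidence of binding.

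Each of the 65 cells had reads of at least 4 of the 7 macrophage markers. C1qb (ENSMUSG00000036905, chr4:136880129-136886187) ranged from 1371 to 9042 CPM per cell with a median of 4548, and reached at most 210 CPM in any EC, HC1 or HC2 cell. Csf1r (ENSMUSG00000024621), the receptor for the macrophage growth factors, ranged from 667 to 7999 CPM with a median of 2746, against at most 520 CPM in the other cells. For these 2 genes no cell of the other classes reached the lowest cell of U1 cluster 5. The share of all genes that separate the cells in this way is not given, here or for genes below. Fcrls (ENSMUSG00000015852, chr3:87250758-87263738) had a median of 1332 CPM (13.1 to 4168) and Cx3cr1 (ENSMUSG00000052336, chr9:119901616-120069879) a median of 1063 CPM (35.7 to 3174), and for each of them 6 of the other cells lay above the lowest cell. Summed over cells, C1qb stood at 4676 CPM (4654 to 4699) against 2.00 (1.82 to 2.20) in the pooled classes, Csf1r at 3064 against 11.4, Fcrls at 1472 against 1.43 and Cx3cr1 at 1195 against 1.33. Csf1r was the marker with the highest level elsewhere, 22.3 CPM in HC1 and 27.4 in HC2 against 1.95 in EC.

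The other 3 markers were not in every cell. After each cell was thinned to 100000 reads, Ms4a7 (ENSMUSG00000024672, chr19:11321039-11336146), a membrane protein of macrophages, had a read in 80% of cells (68.2 to 88.9%), the chemokine gene Ccl12 (ENSMUSG00000035352, chr11:82101845-82103400) in 50.8% (38.1 to 63.4%) and Siglech (ENSMUSG00000051504, chr7:55768178-55778925), a sialic acid receptor, in 44.6% (32.3 to 57.5%). In the other cells, with a median depth of 548877 reads before thinning, the shares were 1.04% for Ms4a7, 0.261% for Ccl12 and 0.261% for Siglech. Ccl12 was at 64.6 CPM (61.9 to 67.3) and Siglech at 53.3 CPM (50.9 to 55.8), against 0.0138 CPM for each in the pooled classes, a level that rests on 3 reads (0.00284 to 0.0403). C1qb, Csf1r, Fcrls and Cx3cr1 were read in 100% (94.5 to 100%) of thinned cells. Counted per thinned cell, 4 to 7 of the 7 markers were detected, with a median of 6. All 7 were found in 15 cells and at least 6 in 41. Of the other cells, thinned alike, none had more than 3, and 220 had none. With all reads 25 of the other cells had reads of at least 4 markers, with 5 at most, and 71 had none. By these markers the cells carry what the working name says.

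**Figure D1:**
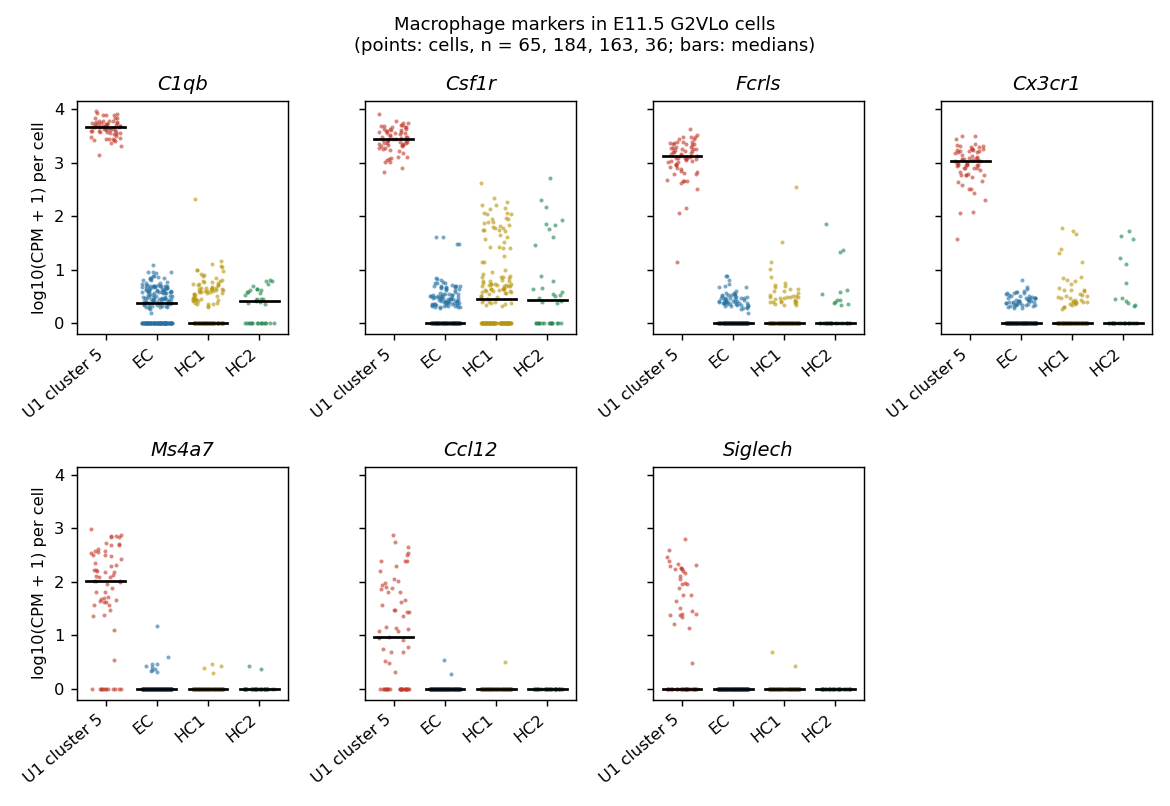
Level of each of the 7 markers in single E11.5 G2VLo cells, as log10(CPM + 1) on the vertical axis, by class on the horizontal axis; points are cells and bars are medians. C1qb and Csf1r of the 65 cells of U1 cluster 5 lie above all cells of the other classes, and Siglech has a median of 0.

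The genes of the sorted proteins and of the reporter were low in these cells, although the titles call them KitHi. Kit, the receptor of stem cell factor, had a median of 0 CPM in the 65 cells with a highest value of 20.1, against a median of 255.1 CPM (1.22 to 1902) in the other cells. Gata2 had a median of 0 and a highest value of 2.56 CPM, against a median of 61.2 and a highest value of 1120. Pecam1, an adhesion protein of endothelium and blood cells, had a median of 16.1 CPM (0 to 554) against 504 (0 to 2575). The highest Kit value and the highest Pecam1 value of the 65 cells came from the same cell. That cell, described below, also carried endothelial genes. The summed levels were 1.69 CPM for Kit against 136.05 in EC, 555 in HC1 and 331.3 in HC2, 0.286 CPM for Gata2 against 42.4, 124.95 and 141.1, and 51.9 CPM for Pecam1 against 838, 327.4 and 84.6. Cd27, a receptor of the TNF receptor family, was at 0.629 CPM, near the 0.624 of EC and below the 82.6 of HC1 and the 52.2 of HC2. Of these genes, Pecam1 was read in 61.5% of the 65 cells (48.6 to 73.3%) after thinning. Transcripts were measured here, not the surface proteins or the Venus signal, and how the gates were drawn around these cells was not tested.

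**Figure D2:**
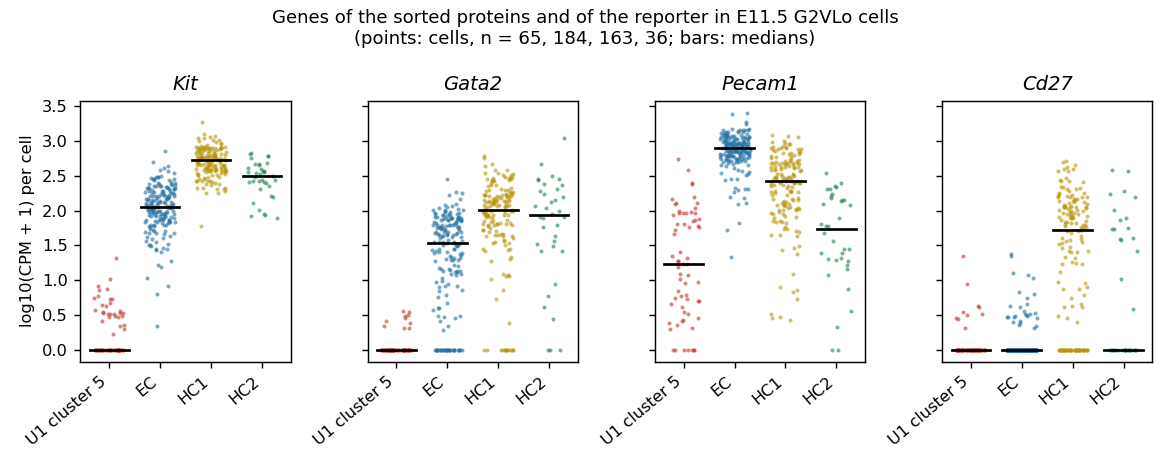
Kit, Gata2, Pecam1 and Cd27 in single E11.5 G2VLo cells, as log10(CPM + 1) on the vertical axis, by class; points are cells and bars are medians. Kit and Gata2 have a median of 0 in U1 cluster 5, and Pecam1 lies between 0 and 554 CPM there. The highest Kit and Pecam1 points of U1 cluster 5 are the cell that also carried endothelial genes.

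By the labels, U1 cluster 5 made up 13.8% (10.8 to 17.2%) of the E11.5 G2VLo cells. In the E11.5 G2VInt gate the share was 1.79% (0.584 to 4.13%). At E10 it was 0 of 87 G2VInt cells, which allows a share of up to 3.45%, and at E11 it was 0 of 130, which allows up to 2.31%. CD27+ cells were not classed. In the clustering of all cells, 64 of the 65 cells were again placed in a cluster numbered 5. The remaining cell was placed in cluster 4, and after thinning it carried 6 of the 7 markers (Csf1r 1176 CPM, C1qb 2724 CPM) together with 6110 CPM summed over 20 pan-endothelial genes, where the second highest of the 65 cells had 448.4. No doublet caller was run, and whether this library held 1 cell was not tested. Values that it moves by more than 1.5 times are given with and without it.

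Across genes the difference between these cells and the other classes was broad. Of 11075 genes with a mean of at least 5 CPM over the 4 classes (called considered below), 1230 were at least 2-fold higher than in pooled EC, HC1 and HC2, which is 11.1%, and 3002 were at least 2-fold lower, which is 27.1%. Against each of the 3 classes separately, 797 genes (7.20%) were at least 2-fold higher and 1429 (12.9%) at least 2-fold lower. Because the cells were clustered on these genes, the counts describe the cluster and test nothing. A gene with almost no reads in the other classes is considered only if it is high in U1 cluster 5. Such a gene is then bound to be called higher. Lists below hold such members, among them those of macrophage, microglia, tissue macrophage, complement, chemokine, cytokine, sensor, lysosome and Fc receptor genes. The counts of higher genes in such lists are partly fixed by this limit. The median log2 ratio of all considered genes, with 1 CPM added to each level, was -0.42. With size factors in place of total reads this median was -0.01 and the split was 1939 higher to 1871 lower, so that 50.9% of calls were higher in place of 29.1%. Ratios below are on the scale of total reads, and a list's median can be read against -0.42. Its counts against the pooled classes can be read against 11.1% higher and 27.1% lower.

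**Figure D3:**
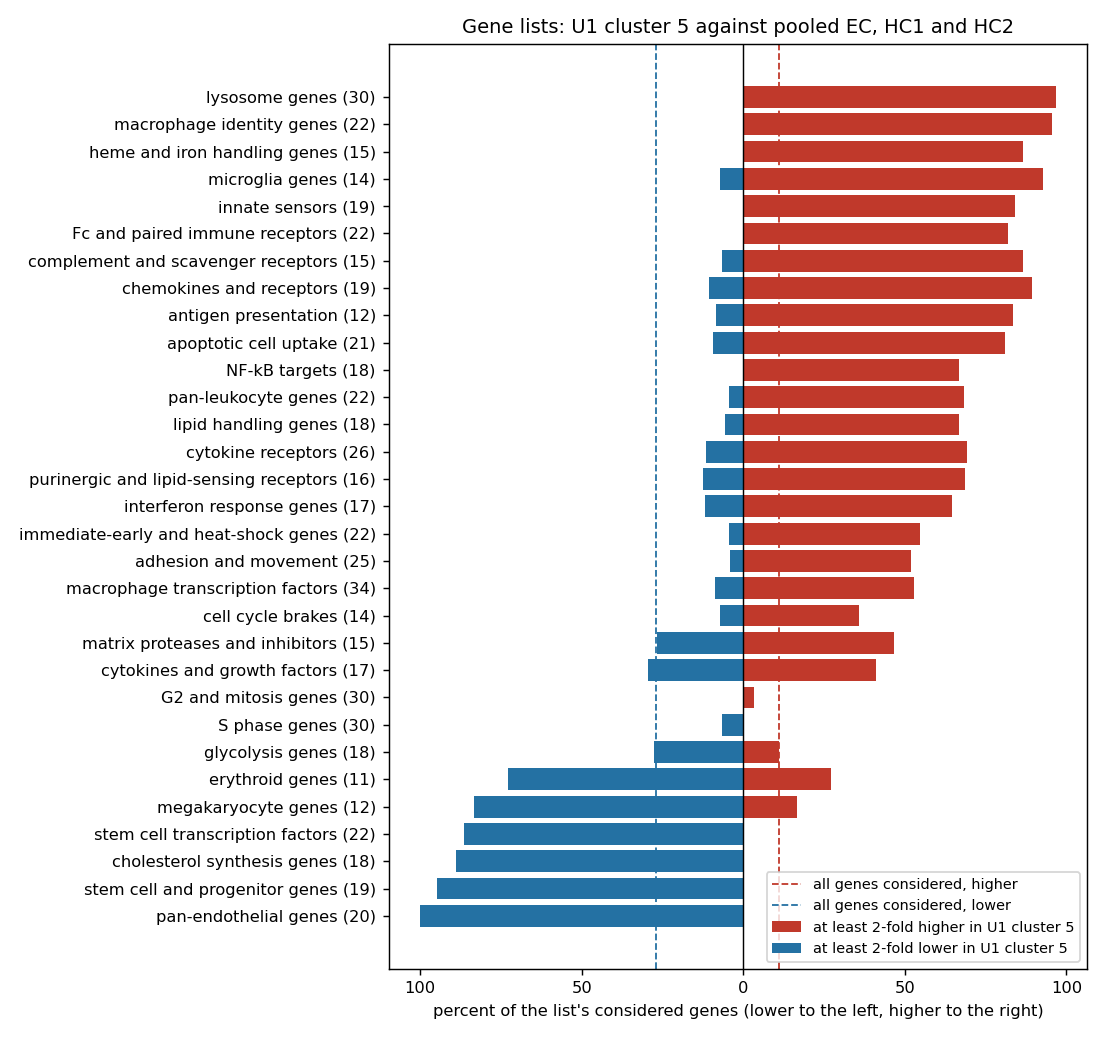
Percent of the considered genes of each list (number in brackets, lists with at least 10) that were at least 2-fold higher (right) or lower (left) in U1 cluster 5 than in pooled EC, HC1 and HC2; dashed lines give the same for all considered genes, 11.1% and 27.1%. Lysosome and macrophage identity genes are at the top and pan-endothelial genes, all 20 of them lower, at the bottom.

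Complement, pattern recognition and clearance genes were among the 30 genes highest above the highest of the 3 classes. Among these 30 were Ccl12, Mpeg1, Ms4a4a, C1qa, Ccr1, C1qc, BE692007, Ifi204, C1qb, Ctss, Cryba4, Ccl2, Trem2, Slc11a1, Ms4a7, Clec4a3, Ly86, Cybb, Adgre1, Fcna, Folr2, Adap2, Ccl24, Gpr34, Fcrls, C3ar1, C5ar1, Casp1 and Cx3cr1. All 3 C1q chains are among them: C1qa had a median of 996 CPM per cell and a highest value of 3465, and C1qc ranged from 565 to 4514 CPM with a median of 1681. The highest of the other cells had 10.6 CPM of C1qa and 21.2 CPM of C1qc, and every cell of U1 cluster 5 was above these levels. Trem2, a lipid receptor of phagocytes, did not overlap either, with 24.3 to 1250 CPM (median 362.04) against at most 21.2. Cryba4, known as a lens crystallin gene, was detected in 87.7% of thinned cells and had a median of 81.1 CPM (0 to 616) against at most 4.16 in the other cells. Mpeg1, a pore-forming protein of phagolysosomes, was at 493 CPM against at most 0.186 in a class.

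Genes used to recognise macrophages were higher. Of 24 macrophage identity genes, 22 were considered, 21 of those were at least 2-fold higher and none at least 2-fold lower, with a median log2 ratio over all 24 of 5.86. Adgre1, the F4/80 antigen, was at 650 CPM against 0.372 pooled, the mannose receptor Mrc1 at 1295 against 3.92, Aif1 at 327.6 against 0.708 and the high-affinity antibody receptor Fcgr1 at 376.3 against 1.14. Mrc1 per cell ran from 49.5 to 3347 CPM with a median of 1103, and 9 of the other cells lay above its lowest value. Genes of some resident macrophages were in part of the cells only. Lyve1, a hyaluronan receptor, had a read in 29.2% of thinned cells (18.6 to 41.8%) with up to 3518 CPM in 1 cell, and in 16.2% of the other cells. Timd4, a receptor for dying cells, had a read in 32.3% against 1.31% of the other cells, and Folr2, a folate receptor, in 50.8% against 1.04%. Cd163, the haemoglobin scavenger receptor, was at 0.886 CPM.

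Several genes known from microglia were high as well. Of 18 such genes, 14 were considered, 13 were higher and 1 (Sparc) was lower, with a median of 3.95. P2ry12, an ADP receptor, had a read in 96.9% of thinned cells against 3.39% of the other cells, and a median of 153.8 CPM (0 to 795), where the other classes reached at most 35.8. Gpr34 was at 138.9 CPM against 0.179 pooled and Olfml3 at 157.4 against 1.95. Tmem119 was higher by a smaller ratio, with 104.8 CPM against 49.8 in EC. Sall1, a transcription factor of microglia, was at 0.457 CPM (0.261 to 0.742), against 0.528 pooled, and at 0.0868 without the cell of cluster 4. Some genes of other resident macrophages were near 0 as well: Spic, of red pulp macrophages, was at 0.972 CPM, Clec4f, of Kupffer cells, at 0.0286, and Vsig4 and Cd207 had no read, which allows up to 0.0857 CPM. Of the 15 tissue macrophage factors 5 were considered, 3 of them higher and 2 lower (Id1 and Id3), and the median log2 ratio over all 15 was 0.00. The higher ones were Timd4 (25.5 CPM against 0.0919 pooled) and the genes of the nuclear receptors Rxra (57.1 against 19.5) and Nr1h3 (18.3 against 2.67). Car4, a gene of alveolar macrophages, was at 0.0286 CPM.

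Genes that mark other blood cell types were mostly low, apart from the monocyte list, which was split. Of 16 monocyte genes 6 were considered, 2 higher (Lyz2 and Itgam) and 2 lower (Fn1 and F10), with a median of 0.06. Lyz2, which encodes lysozyme, had a median of 640 CPM (0 to 4695), while Ccr2 was at 0.772 CPM, Ly6c2 at 0.0571, and Chil3 had no read. Summed over the 16 genes, single cells held 62.2 to 4813 CPM with a median of 767, against medians of 182.2 in EC, 864 in HC1 and 187.3 in HC2. Of 15 neutrophil and early myeloid genes 6 were considered, 2 higher (Igsf6 and Csf3r) and 4 lower, and S100a8, S100a9, Elane and Ctsg had no read. Mpo was at 3.32 CPM against 234.8 in HC1 and 1347 in HC2. Of 13 dendritic cell genes 3 were considered, none higher and 2 lower (Zbtb46 and Flt3), with Xcr1 at 0.829 CPM and no read of Cd209a. The megakaryocyte list had 12 considered genes, of which 10 were lower and 2 higher. Those 2 were Plek and Pf4, a chemokine best known from platelets, at 498 CPM with a read in 96.9% of thinned cells against 40.1 CPM in EC.

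Apart from the pan-leukocyte list, the other cell type lists held few genes of high level. The erythroid list had 8 lower and 3 higher genes of 11 considered, and the 3 higher ones, Blvrb, Epor and Tfrc, act in heme breakdown, as the erythropoietin receptor and in iron uptake. Against each class separately none was higher and 2 were lower. Mast cell genes were lower for 6 of 6 considered, Kit and Gata2 among them. Lymphoid genes were lower for 5 of 6, with Cd79b higher (117.04 CPM against 23.5), and Rag1 and Thy1 had no read. Mesenchymal genes were lower for 4 of 5 considered, though for 0 against each class, and Col1a1 was at 2.14 CPM. The 1 epithelial gene considered, Krt18, was lower, and Cdh1 had no read. Of 2 germ cell genes considered the lower one was Kit, and Pou5f1 and Dazl had no read. Pan-leukocyte genes, shared by blood cells, were higher for 15 of 22 against the pooled classes but for 4 against each class. Ptprc (CD45) was at 330.9 CPM against 0.337 in EC, 121.5 in HC1 and 89.5 in HC2, while Spn (CD43) was at 0.0571 CPM against 40.5 in HC1 and 31.8 in HC2. The part that RNA from other cell types had in these results was not tested.

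Endothelial and stem cell genes were lower. All 20 pan-endothelial genes were at least 2-fold lower than in the pooled classes, and 17 lower than in each class, with a median of -5.65. Their summed level was 224.7 CPM, and 148.5 CPM without the cell of cluster 4, against 9724 pooled. The median cell held 146.1 CPM against 13420 in EC, 5149 in HC1 and 1516 in HC2. Cdh5, the cadherin of endothelial junctions, was at 3.43 CPM, and 1.48 without that cell, against 258.4 in EC. Emcn was at 7.77 CPM, and 3.53 without it, against 1695 in EC. Of 20 stem cell and progenitor genes 19 were considered and 18 lower, and of 22 stem cell transcription factors 19 were lower and none higher. Gfi1 (0.171 CPM against 46.5 in HC1), Hlf (0.114 against 72.97) and Myb (2.49 against 165.5) were near 0. Lyl1 at 103.1 CPM, Hhex at 51.7 and Lmo2 at 44.3 were lower than in HC1 (252.9, 220 and 221.3 CPM) and were read in 89.2%, 73.8% and 64.6% of cells.

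The 15 genes lowest below the lowest class were Gata2, Erg, Kit, Gimap9, Adgrl4, Slco3a1, Mycn, Cd34, Egfl7, Jam3, Itm2a, Gimap5, Tspan6, F2r and Ccnd2. Gata2 was 148.5-fold below the class with its lowest level, EC, and Kit 80.7-fold below EC. Erg, an ETS factor of endothelium and stem cells, was at 0.486 CPM, and 0.174 without the cell of cluster 4, against 40.7 CPM in HC2, its lowest class. Ccnd2, a D-type cyclin, was at 16.8 CPM against 294.1 in HC2. Cd34 was at 20.7 CPM, and 12.5 without the cell of cluster 4, against 702 in HC2. Single-cell values of Cd34 ran from 0 to 653 CPM with a median of 4.15, and the highest was that of the cell of cluster 4.

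Among transcription factors, the macrophage set was higher in part. Of 40 genes 34 were considered, 18 higher and 3 lower. Maf was at 274.1 CPM against 6.79 in EC, 0.638 in HC1 and 0.730 in HC2, Irf8 at 271 against 14.6 in HC2, Irf5 at 200.6 against 15.97 in HC2, and Cebpa at 27.03 against 10.2 in HC2. Spi1, which encodes PU.1, had a median of 487 CPM (0 to 1149), against 356.7 (39.5 to 1011) in HC1 and 0 in EC, so these cells overlapped widely with HC1 for this gene. Its summed level was 510 CPM against 370.7 in HC1 and 209.3 in HC2. The 3 lower genes were Runx2, Id1 and Id3. Runx3 was at 0.0286 CPM, and Id3 at 93.3 against 468.6 in EC.

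Most genes for taking up and digesting material were higher. Of 22 genes for the uptake of dying cells 21 were considered, 17 higher and 2 lower. Among receptors, Mertk was at 101.2 CPM against 0.629 pooled, Axl at 104.5 against 2.78 and Stab1 at 2136 against 274.8. The bridging ligand Gas6 was at 451.7 CPM against 13.98, whereas Mfge8, another bridging ligand, was lower at 14.5 against 164.5. The signalling adaptor Tyrobp was at 1178 CPM against 111.5 in HC2, and Itgb3 was lower at 0.543 against 43.04 pooled. Of 32 lysosome genes 30 were considered and 29 were higher, with none lower and a median of 2.23. Cathepsin B (Ctsb) ranged from 1432 to 18616 CPM with a median of 6623, and no other cell exceeded 1269. Ctss was at 1118 CPM against 0.414 pooled, the asparaginyl protease Lgmn at 2622 against 26.2 and Ctsd at 5142 against 377.4. Summed over the 32 genes, single cells held 11492 to 88864 CPM with a median of 34956, against medians of 3496 in EC, 4456 in HC1 and 3313 in HC2.

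Complement and scavenger receptor genes numbered 13 higher and 1 lower of 15 considered. Besides C1q they included the anaphylatoxin receptors C3ar1 (1008 CPM against 1.14) and C5ar1 (300 against 0.299) and the scavenger receptor Msr1 (67.1 against 0.115). C3 itself was at 0.114 CPM, Marco had no read, and the lower gene was Stab2 (1.37 CPM against 133.7 in EC).

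Lipid and iron handling genes were higher for the most part. Apoe, the lipid carrier, had a lowest value of 2010, a median of 14408 and a highest value of 51956 CPM, against medians of 58.3 in EC, 1057 in HC1 and 302.6 in HC2. Its summed level was 30.8-fold that of the pooled classes. Of 18 considered lipid handling genes 12 were higher, among them the lipid receptor Lrp1 (210 CPM against 1.32), the lipase Lpl (712 against 15.1), the cholesterol exporter Abca1 (456.9 against 45.6) and the droplet protein Plin2 (1178 against 119.3). Fabp4 was the lower one (0.571 CPM against 21.3 in EC). In contrast, cholesterol synthesis genes were lower for 16 of 18 considered, with none higher and a median of -1.91, and 8 were lower than in each class. Srebf2, which drives the pathway, was at 16.5 CPM against 113.4. Of 17 heme and iron genes 15 were considered, 13 higher and none lower: the heme oxygenase Hmox1 was at 1260 CPM against 58.9, the iron exporter Slc40a1 at 587 against 11.47 and the phagosomal metal transporter Slc11a1 at 271.6 against 0.138. Hmox1 was uneven, with 0 to 15553 CPM per cell and a median of 409.3. For glycolysis, 2 of 18 genes were higher and 5 lower, near the shares of all considered genes, 11.1% and 27.1%. Against each class 1 was higher and 2 were lower, where the shares of all considered genes were 7.20% and 12.9%. Hk3 was at 125.1 CPM against 0.285 pooled and read in 92.3% of thinned cells, whereas Hk1 was at 17.4 CPM against 76.6 in EC, 159.5 in HC1 and 140 in HC2, so the 2 hexokinase genes lay on opposite sides of the other classes. The ferritin genes Fth1 and Ftl1, like Gapdh, have near-identical copies elsewhere in the genome and their counts are uncertain.

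Receptors that sense the surroundings were mostly higher. Fc and paired immune receptors numbered 24 measured genes, of which 22 were considered, 18 higher and none lower: Fcgr4 was at 96.6 CPM against 0.0781 and Fcgr3 at 863 against 80.1 in HC2. Plcg2, a signalling enzyme, was at 152.9 CPM against 575 in HC1. Of 24 innate sensor genes 19 were considered, 16 higher and none lower, with Tlr13 at 100.6 CPM against 0.386, Tlr7 at 56.1 against 0.400, the co-receptor Cd14 at 87.2 against 0.832 and the inflammasome genes Nlrp3 at 46.2 against 0.0965 and Casp1 at 71.4 against 0.106. The double-stranded RNA receptor Tlr3 was at 7.60 CPM against 11.2 in EC, and Tlr5 at 2.14. Purinergic and lipid-sensing receptors were higher for 11 of 16 considered and lower for 2, S1pr1 (62.5 CPM against 157.9) and Lpar6 (63.7 against 144.8). P2ry6, a receptor for UDP, was at 385.9 CPM against 1.84 pooled. Of 27 cytokine receptors 26 were considered, 18 higher and 3 lower: Il10ra was at 155.99 CPM against 2.37, Tnfrsf11a (RANK) at 79.2 against 1.93 and Il4ra at 583 against 59.5. Kit and Flt3, receptors of blood progenitors, were among the lower ones.

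Chemokine genes were higher, several of them in part of the cells. Of 22 chemokine and receptor genes 19 were considered, 17 higher and 2 lower (Cx3cl1, the ligand of Cx3cr1, and Ackr3). Ccl3 ranged from 0 to 10603 CPM with a median of 432.8 and had a read in 83.1% of thinned cells, Ccl2 from 0 to 1825 with a median of 25.1, and Ccl24 from 0 to 2723 with a median of 38.1. The receptor Ccr1 was higher too (124.5 CPM against 0.0459). Of 26 cytokine and growth factor genes 17 were considered, 7 higher and 5 lower. The share of lower genes was near the 27.1% of all considered genes. Il18, read in 78.5% of thinned cells, was at 43.6 CPM against 0.243, Il1a at 47.1 against 0.101 and Spp1 (osteopontin) at 117.2 against 0.864. The lower ones included Igf2 (32.9 CPM, and 16.1 without the cell of cluster 4, against 956), Bmp4 (0.314 against 63.4) and Pdgfb (6.63 against 35.2). Kitl, the ligand of Kit, was at 17.1 CPM against 59.6 in EC, and Csf1, a ligand of Csf1r, at 3.26 against 7.86 pooled.

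Antigen presentation was split by class. Of 20 genes 12 were considered, 10 higher and 1 lower. For class I, B2m was at 1672 CPM against 271.6, and the immunoproteasome gene Psmb8 at 85.6 against 9.78. The costimulatory genes Cd83 and Cd86 were at 795 and 185.6 CPM against 3.49 and 4.10. For class II, H2-Aa and the transactivator gene Ciita had no read, which allows up to 0.0857 CPM, H2-Eb1 was at 0.343 and H2-Ab1 at 2.14 CPM, and Cd74 was at 17.2 against 0.570. Interferon response genes were higher for 11 of 17 considered and lower for 2, Rsad2 and Ifitm3. Against each class 5 were higher and 0 lower. Ifi207 (264.7 CPM against 0.427) and Ifi204 (96.1 against 0.0414) belong to a family of similar neighbouring genes, so reads may be split between them, while Isg15 was at 0.972 CPM and Ifit1 at 1.29. In the adhesion list 13 of 25 considered genes were higher and 1, Vim, lower, and against each class 6 were higher and 0 lower. Itgb5 was at 163.9 CPM against 2.91, and Itgam (CD11b) at 49.5 against 5.23. Of the matrix proteases and inhibitors 7 of 15 were higher, F13a1 (542 CPM against 3.24) and Cstb (326.2 against 34.6) among them. In the same list 4 were lower, near the 27.1% of all considered genes. Among these 4 were Timp3 (0.857, and 0.405 without the cell of cluster 4, against 170.9) and Mmp14 (3.74, and 2.20 without it, against 120).

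Few genes of division passed the 2-fold line in either direction. Mki67, a marker of cycling cells, had a median of 506 CPM (0 to 1617) and a read in 84.6% of thinned cells, against medians of 174.2 in EC, 71.5 in HC1 and 196.3 in HC2, and 29 of the other cells reached the median. Mki67 was the 1 gene of 30 in the G2 and mitosis list that was at least 2-fold higher, none was lower, and the median was 0.24. Of 30 S phase genes none was higher and 2 were lower, with a median of -0.54, and none was lower than in each class. With size factors 6 G2 and mitosis genes were higher and no S phase gene was lower, and 11 S phase genes were lower in cells with upper library numbers against 1 with lower ones. Thinned sums over the 30 S phase genes ran from 210 to 11440 CPM with a median of 3000, against medians of 3510 in EC, 5430 in HC1 and 6025 in HC2. The sums over the 30 G2 and mitosis genes ran from 120 to 14510 CPM with a median of 5440, against 4075, 2600 and 5960. Among brakes of the cycle 5 of 14 considered genes were higher, with Cdkn2c at 41.8 CPM against 0.974 and Cdkn1a at 84.9 against 21.6. Cdkn1c, which encodes p57, was lower, at 13.3 CPM against 327.2 in EC and 260 in HC1. Its level in HC2, 11.1 CPM, was below that of U1 cluster 5.

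**Figure D4:**
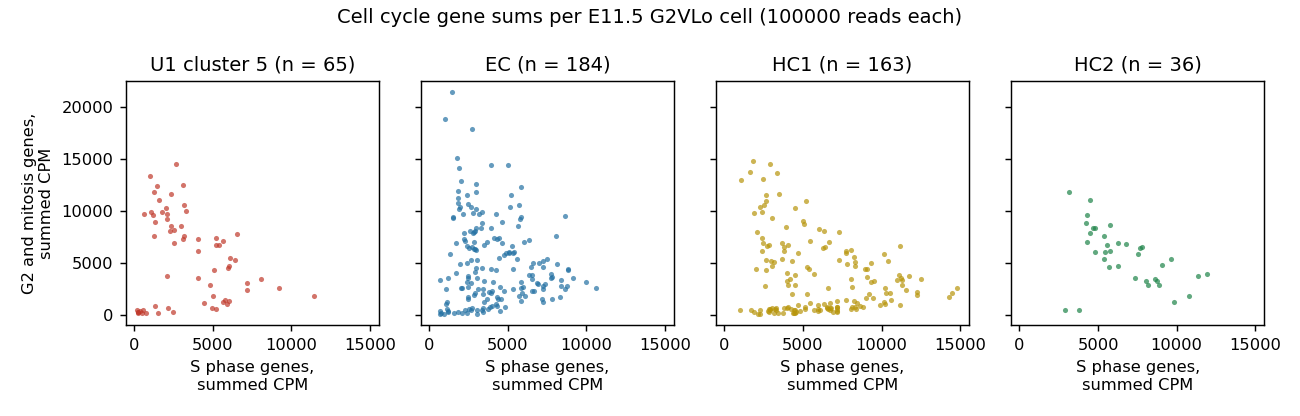
Summed CPM of 30 S phase genes (horizontal) and of 30 G2 and mitosis genes (vertical) in each E11.5 G2VLo cell thinned to 100000 reads, by class; each point is a cell. Cells of U1 cluster 5 spread from near 0 to 14510 CPM on the vertical axis, within the range of EC (50 to 21480 CPM).

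The 65 cells also differed among themselves. The 12 genes with the largest variance between thinned cells, among genes of at least 20 CPM with a read in 20 to 80% of cells (which leaves out more widely read genes such as Ccl3), were Ccl4, Atf3, Nfkbia, Egr1, Cxcl2, Dusp1, Tnf, Il1b, Nr4a1, F13a1, Hspa1a and Rgs1. Ccl4 ran from 0 to 8654 CPM with a median of 248.3, Tnf from 0 to 3601 with a median of 45.9, and both Il1b (up to 3072) and Cxcl2 (up to 4805) had a median of 0. After thinning, 46 of 65 cells had a read of Ccl4, 39 of Tnf, 25 of Cxcl2 and 23 of Il1b. Counted per cell, 31 cells had at least 9 of the 12 genes and 12 cells at most 3, with a range of 2 to 12. Over the 66 pairs of these genes, Spearman's rho across the 65 cells had a median of 0.39 (-0.18 to 0.79) and was above 0 in 60. It was 0.79 for Nfkbia and Tnf and 0.73 for Egr1 and Dusp1, and with the total reads of a cell it ran from -0.18 for Ccl4 to 0.31 for F13a1 over the 12 genes. All 65 points come from 1 gate and day, and the correlations are a description. The list of 24 immediate-early and heat-shock genes had 12 higher and 1 lower of 22 considered, and that of NF-kB targets 12 higher and none lower of 18. Single cells ran from 200 to 28857 CPM summed over the first list (median 6300) and from 286.4 to 25112 over the second (median 2649). Spearman's rho was 0.56 between Lyve1 and Mrc1 and 0.45 between F13a1 and Mrc1.

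**Figure D5:**
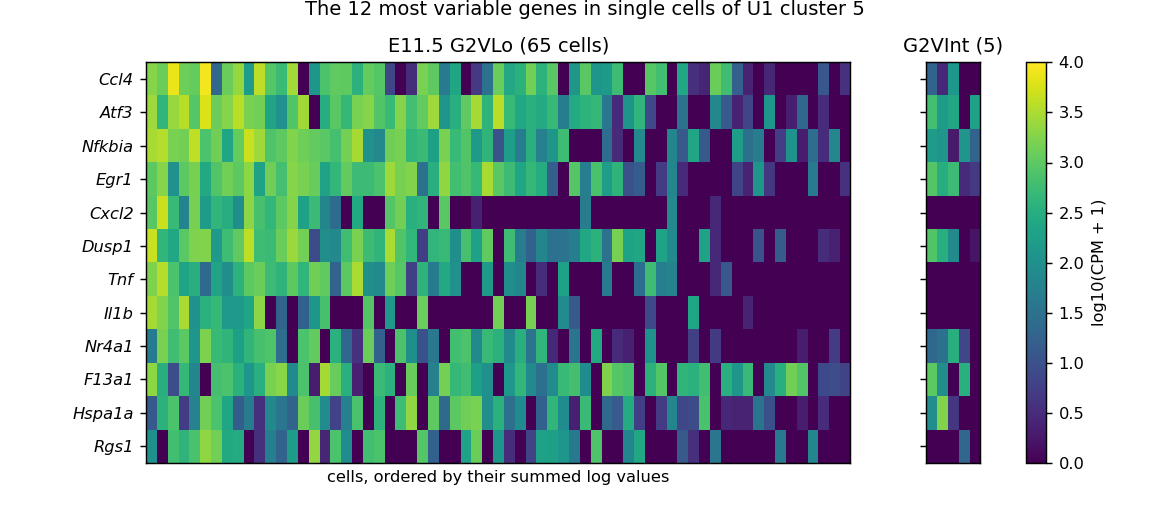
Levels of the 12 most variable genes (rows) in single cells of U1 cluster 5 (columns), as log10(CPM + 1) by colour, ordered by the sum of a cell's values; left, 65 E11.5 G2VLo cells, right, the 5 E11.5 G2VInt cells. Cells at the left edge carry nearly all 12 genes and those at the right edge of the left panel few, and Tnf, Il1b and Cxcl2 are at 0 in the 5 G2VInt cells.

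The library numbers in the titles gave a way to look at the cells in 2 sets, of 33 below and 32 above the median number of the gate; the labels do not say what the numbers stand for. The share of U1 cluster 5 was 13.98% (9.82 to 19.1%) in the first and 13.6% (9.46 to 18.6%) in the second. Of the markers, C1qb was at 4781 and 4575 CPM and Csf1r at 3135 and 2996, while Siglech was at 71.4 and 35.7. The genes furthest apart with the higher level at low numbers included Tedc1, Rgs1, Ccl24, Mybl2, Terf2ip, Aar2 and Wdr90, and at high numbers Sec24d, Rabif, Fbxo9, Errfi1, Scfd1, Il3ra, Gsdmd and Stx16. Tedc1 was at 62.7 and 4.62 CPM, Ccl24 at 189.05 and 38.5, and Sec24d at 11.47 and 75.2. Rgs1 was at 367.4 and 74.6.

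The 5 cells of the E11.5 G2VInt gate carried 5 to 7 of the markers after thinning. Csf1r was at 2821, 2847, 2254, 7194 and 3764 CPM in them and C1qb at 5624, 5474, 6046, 6920 and 5856, within the range of the 65 cells. Siglech was at 549, 79.97, 25.7, 0 and 0 CPM. Kit stood at 2.32, 15.99, 0, 1.38 and 2.10 CPM, and Gata2 at 0.927, 0, 0, 0 and 0.349. Tnf, Il1b and Cxcl2 had no read in any of the 5 cells, at a median depth of 2156693 reads, and Timd4 had none either. Over thinned cells that is 0 of 5 (a count of 0 allows up to 60%), against 39, 23 and 25 of 65. Rgs1 was also read in 0 of 5, against 33 of 65. Nr4a1, Atf3 and Nfkbia were each read in 4 of the 5 cells, against 35, 50 and 50 of 65. The 5 cells had 2 to 8 of the 12 variable genes with a median of 5, against a median of 8. Against the EC, HC1 and HC2 cells of their own gate, the median log2 ratio was -0.76 over the NF-kB targets and -0.63 over all considered genes, where these were 1.31 and -0.42 in G2VLo. Over lysosome genes it was 2.39 in G2VInt and 2.23 in G2VLo. Mitochondrial genes took a median of 2.38% of reads in the 5 cells and 6.80% in the 65, and depth, gate and library numbers differed together between them, so these cannot be told apart.

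The 12 other U1 cells of E11.5 G2VLo, numbered cluster 6, carried macrophage markers as well, 3 to 7 of the 7 in each thinned cell. C1qb was at 5739 CPM and Csf1r at 2373 in cluster 6, near the 4676 and 3064 of cluster 5. Fcrls was lower there (325.8 CPM against 1472), as were Ms4a7 (40.6 against 177.96), Ccl12 (5.91 against 64.6) and Siglech (2.48 against 53.3). Genes chosen after their values were seen ran the other way: Spic was at 56.2 CPM against 0.972, Hmox1 at 6485 against 1260, Slc40a1 at 2580 against 587 and Lyz2 at 2382 against 1055. Ccl4 was at 2.10 CPM against 631 and Tnf at 12.8 against 383.5. Kit (1.91 CPM) and Gata2 (0.191 CPM) were as low in cluster 6 as in cluster 5. The clusters were made from the expression of these same cells, so the difference describes them and was not tested.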

How the data were processed

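Messenger RNA of 1087 single cells was measured, each deposited as 1 sample. The authors' file is a table of read counts, not normalized, with 1 row per Ensembl gene and 1 column per cell. HTSeq 0.6.0 and GRCm38 are named in the submitters' processing notes, and the aligner and strand setting are not given in the sources used here. Nextera XT libraries were sequenced on a HiSeq 2500, according to the labels' protocols. These protocols describe no tagging of molecules, so PCR copies count as reads and intervals cover counting error only. Of 46078 genes 45229 matched a symbol of GENCODE M21, and the others held 0.0859% of reads. Columns were matched to samples by title (0 were unmatched). Depth ranged from 152492 to 1417544 reads per cell in the 65 cells.

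Cell classes were taken from the labels. Counts were summed per class, expressed as CPM with exact Poisson 95% intervals, and compared as ratios; shares above 0 carry Clopper-Pearson 95% intervals. For shares each cell was thinned to 100000 reads. Genes were considered at a mean of at least 5 CPM over 4 classes and called at 2-fold. List medians run over all measured members of a list, as log2 ratios with 1 CPM added. A count of 0, also for a share of 0, allows 3 counts. With 1 sample per group no test was run. Genes named were the 7 markers, the sorted genes, the 30 highest and 15 lowest (at least 20 CPM and a read in 50% of thinned cells), up to 5 members per list, members for each role, and the genes most variable between cells or library numbers. Others were chosen after their values were seen. Some genes that this rule names are not reported here. The members and the 42 gene lists (839 entries, 725 genes, 724 of them in the table) were chosen with earlier results of these data known. Simulated ratios were recovered before use. The simulation had no variation between cells, and its changed genes had larger ratios and higher levels than the limits for calls. Calls near 2-fold or near 5 CPM were not checked by it. Python 3.11.15, numpy 2.4.6, pandas 2.3.3 and scipy 1.17.1 were used. Alternatives were the mean of per-cell CPM, thinned cells, size factors, totals without mitochondrial and ribosomal genes, lower and upper library numbers, both clusterings, deeper cells (at least 300000 reads), equal weights and no minimum level.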

Additional observations from a re-analysis of the deposited data

Results flagged for a closer look

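The clustering that gave U1 cluster 5 left out CD27+ cells, so the comparisons above do not use them. In the clustering of all cells, 3 CD27+ cells (2.52% of them, 0.523 to 7.19%) fell into the cluster that holds 64 of the 65 cells. Csf1r was at 3344, 1220 and 1790 CPM in these CD27+ cells. They were placed there by their expression, so these levels describe the placement and test nothing. After thinning they carried 5, 4 and 6 of the 7 markers. Cd27 was at 2.58, 5.10 and 0 CPM and Kit at 2.58, 250 and 9.37 CPM. The cell with 250 CPM of Kit also had 1115 CPM summed over 20 pan-endothelial genes, where the other 2 had 85.3 and 134.3.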

How the results depend on the processing

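With 1 sample per group and no embryo named, the values carry no error between embryos, and depth limits levels near 0.0857 CPM in the 65 cells. No label ties a cell to an embryo or a day of sorting, so no paired analysis was possible and no test was run. Gene counts against the pooled classes were recomputed under 10 alternatives, and those against each class under the same ones except equal weights. For each list only the larger of its higher and lower counts against the pooled classes was recomputed, or both where equal. For lists, members with at least 10 CPM in 1 group took the place of no minimum level. Other list counts, also those against each class, were not recomputed. Size factors gave 1939 genes higher and 1871 lower than the pooled classes, and 1205 higher and 873 lower than each class; no minimum level gave 4594, 13417, 3126 and 3777. The share of these cells, 13.8%, was 13.98% in the other clustering. Small list counts moved most. The 2 lower S phase genes were 4 by the mean of per-cell CPM, 0 with size factors, 1 with lower and 11 with upper library numbers, 4 without the cell of cluster 4, 1 in deeper cells and 5 with equal weights. The 1 higher G2 and mitosis gene was 2 by the mean of per-cell CPM, 2 after thinning, 6 with size factors, 3 with lower library numbers and 2 without the cell of cluster 4. Lower glycolysis genes were 3 with size factors in place of 5. With lower library numbers 4 monocyte, 2 mesenchymal and 2 germ cell genes were lower, and with members of at least 10 CPM in 1 group 4 erythroid genes were. Of the listed genes called at 2-fold, Cxcl1 changed sign to -1.77 with lower library numbers and Lpar5 to -0.13 with upper ones. Among the counts of genes or list members that were recomputed, these are the 25 that moved by more than 1.5 times. For single genes and the shares of cells with a marker read, 4166 recomputed values stayed within counting error and 2625 moved beyond it. A further 2 changed sign, counted only among genes called at 2-fold. Changes of sign in other genes were not counted apart.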
